A study of Homo sapiens with 24 samples.

Results

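The immediate early transcription factors described here are 10 genes chosen by name: the zinc finger factor EGR1, the AP-1 subunits JUN, JUNB, JUND, FOS and FOSL1, the Krüppel-like factors KLF6 and KLF10, and the nuclear proteins IER2 and IER5. Each matched 1 of the 19692 entries of the deposited count tables. The study followed RNA decay with catabolic SLAM-seq, a pulse-chase assay in which 4-thiouridine (s4U) built into new RNA is read as T-to-C conversions, in HEK293 cells, an established human embryonic kidney line. The control line overexpressed Flag/HA, and the other line was labelled as overexpressing Flag/HA-ZC3H7B, a CCCH zinc finger RNA-binding protein (ZC3H7B-OE). Cells of both lines received 100 µM s4U together with 1 µg/mL doxycycline for 24 h, with fresh medium every 6 h, and were then chased in 10 mM uridine for 0, 2, 4 or 6 h. There were 3 libraries for each line and time, 24 in all, and poly(A) RNA was sequenced. The labels give neither whether a line is 1 clone nor whether the 3 libraries of a group came from separate cultures, and every p-value below rests on the spread among these libraries, which may be technical.

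Immediate early genes are transcribed within minutes of a growth factor, serum or stress signal, without new protein synthesis, largely through serum response factor and its ternary complex partners at CArG boxes and through CREB and ATF proteins at cyclic AMP response elements (CREs). Their mRNAs are as a rule short-lived, and AU-rich elements in the 3′ untranslated region are among the sequences known to speed their decay. JUN and FOS family proteins pair to form AP-1, EGR1 binds GC-rich sites and drives growth and repair genes, and KLF6 and KLF10 regulate growth and the response to TGF-β.

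RefSeq promoters (GRCh38.p14, 250 bases before to 50 after the start site) were matched for 8 of the 10 genes. FOSL1 and KLF10 are named only. A CArG box stood in 1.29% of 35116 promoters of this length and, among the 8, in that of EGR1, where it occurs at positions -105 and -83 from the start site. Sequence outside these 250 and 50 bases was not searched, so a gene without a match here may carry the element further away. The following windows of 30 bases show these boxes and the CRE letters in capitals, because these are the elements for which such promoters are known.
EGR1, CArG box at -105, chr5:138465364-138465393, plus strand: gccggtcctgCCATATTAGGgcttcctgct
EGR1, CArG box at -83, chr5:138465386-138465415, plus strand: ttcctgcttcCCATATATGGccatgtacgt
FOS, CRE core at -64, chr14:75278751-75278780, plus strand: gtggttgagcccgTGACGtttacactcatt
JUN, CRE core at -123, chr1:58784154-58784183, minus strand: ggagtctccatggTGACGggcgggcccgcc
JUNB, CRE core at -137, chr19:12791336-12791365, plus strand: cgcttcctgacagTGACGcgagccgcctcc
JUND, full CRE at -200, chr19:18281804-18281833, minus strand: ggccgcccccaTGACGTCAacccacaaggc
IER2, CRE core on the opposite strand at -140, chr19:13150258-13150287, plus strand: ccacccccgccccCGTCAcgccaccatcga

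The CRE core (TGACG, either strand) stood in 24.6% of all promoters and in 6 of the 8: JUN, EGR1, FOS, JUNB, IER2 and JUND. The full CRE (TGACGTCA, which contains 2 overlapping cores) stood in 1.85% of all promoters and in that of JUND. The AP-1 letters TGANTCA stood in 7.71% of all promoters and in 0 of the 8, and the EGR letters GCGNGGGCG in 9.43% of all promoters and in those of EGR1 and KLF6. These matches describe the letters in the windows and are no evidence of binding.

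In the 3′ untranslated regions (GENCODE release 29, GRCh38, 1 principal transcript per gene, 17682 genes), the AU-rich pentamer ATTTA occurred at least once in 65.8% of genes and the nonamer TTATTTATT in 7.74%. FOS held 5 pentamers and 1 nonamer and IER5 10 pentamers and 3 nonamers, which overlap. KLF6 had 6 pentamers, JUN and KLF10 3 each, JUNB 2, EGR1, FOSL1 and JUND 1 each and IER2 0, all without a nonamer. These regions differ in length. Per kilobase, FOS had 6.20 pentamers, JUNB 4, IER5 3.32, JUN 2.33, KLF10 2.22 and KLF6 1.69. FOSL1 had 1.50, JUND 1.47, EGR1 0.81 and IER2 0, against a median of 1.48 over all genes. The nonamers (capitals) of FOS and the first of IER5 are shown because these genes alone among the 10 carried one.
FOS, chr14:75282059-75282088, plus strand: gtgtttttaatTTATTTATTaagatggatt
IER5, chr1:181092442-181092471, plus strand: ggtgtcttcctTTATTTATTtatttattta

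The libraries held 1502068 to 3676254 reads assigned to entries. ZC3H7B itself had 193 to 377 CPM (reads per library size, scaled by the trimmed mean of M values, TMM) in the control libraries and 255 to 465 in the ZC3H7B-OE libraries, 0.28 higher on the log2 scale over the 4 times (SE 0.08, edgeR adjusted p = 0.00350), with ranges that overlapped at 2 h. Control 0 h replicate 3 stood apart, with a TMM factor of 0.724 and reads in 11032 entries, against at least 12005 in every other library. Line differences called at 0 h and changes in all reads from 0 h in the control line are therefore also given without it. Of 9 embryonic kidney and neural markers 8 were in the table, with INA, CDH2 and WT1 read in all 24 libraries. Their summed level was 148 to 286 CPM per library, mostly from INA (mean 124 CPM in the control and 164 in the ZC3H7B-OE line) and CDH2 (51.7 and 52.3). WT1 had 5.92 and 7.39 CPM. The other markers were low, with 241 reads of VIM, 76 of LHX1, 13 of PAX2, 4 of PAX8 and 2 of NEFM in all. Epithelial markers summed to 21.2 to 124 CPM per library, led by EPCAM, with 1 read of CDH1 in all. Fibroblast, endothelial and liver markers summed to at most 5.80 CPM in any library. Leukocyte markers summed to 37.0 to 274 CPM, nearly all from the lysosomal gene CD68, with PTPRC and CD3E at 0.

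Most of the 10 genes had fewer reads in the ZC3H7B-OE line. Averaged over the 4 chase times, 8 of the 9 genes tested were lower at an edgeR adjusted p under 0.05, beside 25.4% of all 10038 entries tested. The median log2 difference of the 9 was -0.55, against 0.01 over all entries. EGR1 had the lowest value among them, 3.28-fold below the control line, followed by KLF10, FOSL1, JUNB, JUN, KLF6, IER2 and IER5. JUND did not pass the test, and FOS was too low to test. The count was 5 with control 0 h replicate 1 left out, also 5 with ZC3H7B-OE 6 h replicate 2 left out, and 9 with control 0 h replicate 3 left out. In bulk libraries, fewer cells that express a gene and less RNA per cell cannot be told apart.

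EGR1, the zinc finger factor best known as a readout of growth factor signalling, differed between the lines at every time. At 0 h its level was 91.9, 94.6 and 49.8 CPM in the control libraries and 38.0, 26.2 and 37.7 in the ZC3H7B-OE libraries. At 2 h the values were 115, 95.6 and 89.1 against 19.6, 32.2 and 37.3. At 4 h they were 160.4, 166 and 175 against 42.0, 34.5 and 38.0. All control libraries lay above all ZC3H7B-OE libraries at these times, and so they did at 6 h, where EGR1 read 153, 159.7 and 149 CPM against 38.2, 52.4 and 48.0. The log2 difference over the 4 times was -1.71 (SE 0.11, 95% interval -1.93 to -1.50, edgeR adjusted p = 1.72e-14), a level 3.28-fold lower. By time it was -1.25 at 0 h (SE 0.22, adjusted p = 5.18e-05), -1.74 at 2 h (SE 0.22, adjusted p = 1.64e-06), -2.13 at 4 h (SE 0.20, adjusted p = 1.57e-08) and -1.74 at 6 h (SE 0.20, adjusted p = 4.23e-07). Without control 0 h replicate 3, the lowest control library for EGR1, the 0 h difference was -1.47 (adjusted p = 7.18e-09). Over all 33 alternatives run on the average, the EGR1 difference stayed between -1.84 and -1.57. In the order of its 8 group means EGR1 ran from 29.7 ± 9.11 CPM (SD, n = 3) in the ZC3H7B-OE line at 2 h through 33.9 ± 6.73 (0 h), 38.2 ± 3.75 (4 h) and 46.2 ± 7.26 (6 h) to the control line with 78.8 ± 25.2 (0 h), 99.8 ± 13.2 (2 h), 154 ± 5.26 (6 h) and 167 ± 7.26 (4 h). Neighbours in this order had overlapping ranges within the ZC3H7B-OE line, between ZC3H7B-OE 6 h and control 0 h, and between control 0 h and 2 h, whereas control 2 h lay below control 6 h and control 6 h just below control 4 h in every library.

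**Figure D1:**
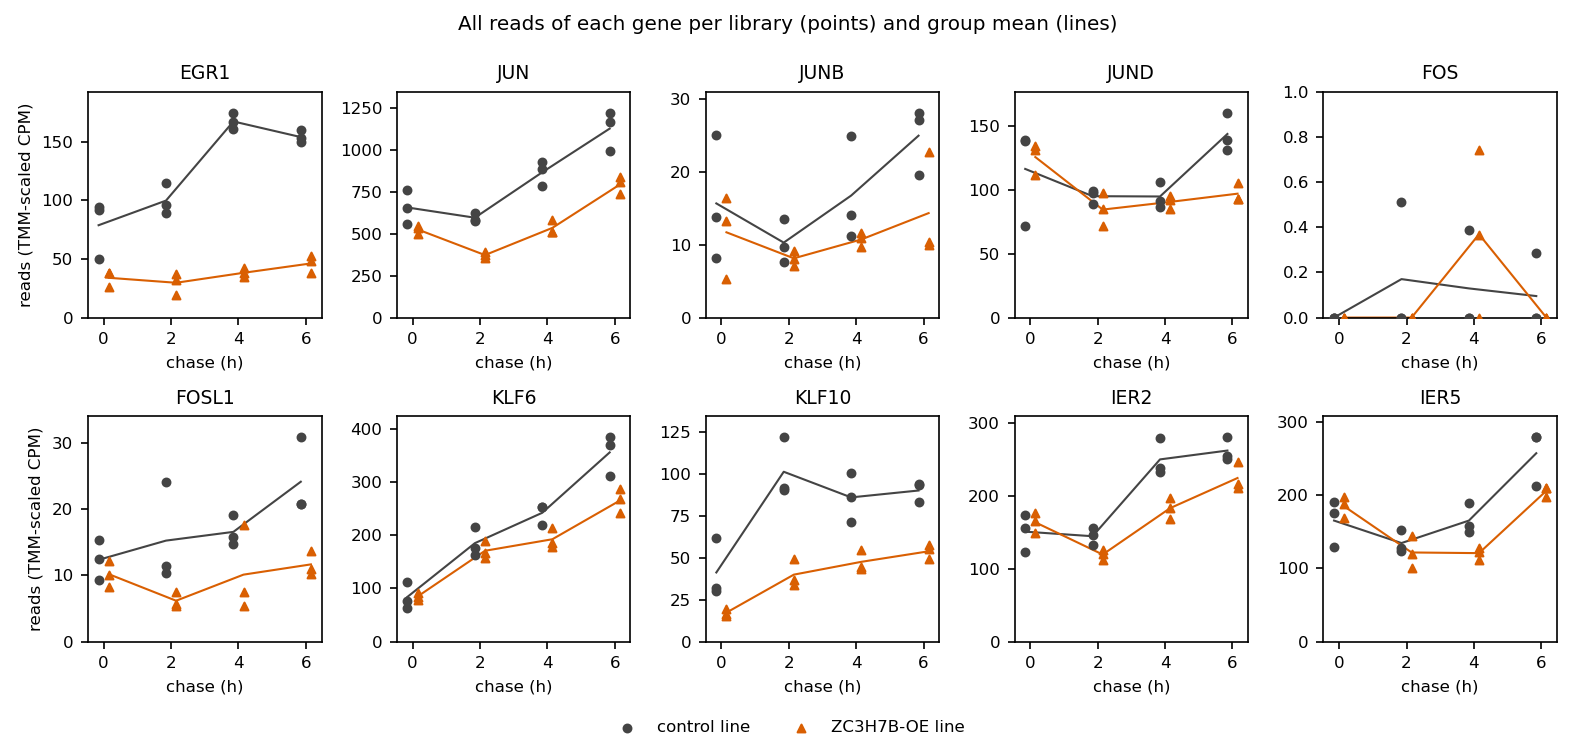
Reads of each of the 10 genes in TMM-scaled CPM (vertical axes, linear, each gene on its own scale) against chase time in hours; circles are control libraries, triangles ZC3H7B-OE libraries, and lines join the means of 3 libraries. EGR1, JUN and KLF10 are lower in every ZC3H7B-OE library than in any control library of the same time, and FOS shows 6 reads in all 24 libraries.

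JUN, the main DNA-binding partner in AP-1, was read deeply, with 603 to 4065 reads per library. At 0 h it had 761, 650.3 and 556 CPM in the control line and 535, 497 and 544 in the ZC3H7B-OE line. At 2 h it had 583, 625 and 576 against 372, 393 and 352. At 4 h it had 884, 784 and 928 against 583, 510.0 and 510.1. The lines did not overlap at these times nor at 6 h, when JUN read 1221, 992 and 1163 CPM in the control line and 734, 806 and 837 in the ZC3H7B-OE line, although at 0 h the closest libraries were 556 and 544 CPM. The log2 difference was -0.55 over the 4 times (SE 0.06, adjusted p = 5.22e-09), -0.32 at 0 h (SE 0.12, adjusted p = 0.0417), -0.68 at 2 h (SE 0.12, adjusted p = 0.000251), -0.70 at 4 h (SE 0.12, adjusted p = 0.000126) and -0.51 at 6 h (SE 0.12, adjusted p = 0.00380), all by edgeR. Leaving out control 0 h replicate 1 (-0.22, adjusted p = 0.208) or replicate 2 (adjusted p = 0.0629) ended the call at 0 h, as did leaving out ZC3H7B-OE 0 h replicate 1, 2 or 3 (adjusted p = 0.0858, 0.137 and 0.0777). Without control 0 h replicate 3 it was -0.43 (adjusted p = 0.00235). The average over the 4 times was called in all 33 alternatives.

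The other JUN proteins differed less or less surely. JUNB, an AP-1 subunit that can oppose JUN, had 9 to 95 reads per library, and its ranges in the 2 lines overlapped at all 4 times. At 6 h JUNB read 28.2, 19.6 and 27.2 CPM in the control line and 10.4, 9.91 and 22.7 in the ZC3H7B-OE line, where replicate 3 alone reached the control range (log2 difference -0.82, SE 0.36, edgeR adjusted p = 0.121). Without that library the 6 h difference was called (-1.30, adjusted p = 0.0379). Over the 4 times the JUNB difference was -0.56 (SE 0.20, adjusted p = 0.0232). Leaving out 1 library ended this call in 4 cases, namely control 0 h replicate 1 (-0.40, adjusted p = 0.104), control 2 h replicate 2 (adjusted p = 0.0501), control 4 h replicate 1 (adjusted p = 0.0690) or ZC3H7B-OE 6 h replicate 2 (adjusted p = 0.0504). JUND, the JUN protein found in resting cells, was at -0.18 over the 4 times (SE 0.09, 95% interval -0.36 to 0.00283, adjusted p = 0.101). It was called without control 0 h replicate 3 (-0.24, adjusted p = 0.00366) and without ZC3H7B-OE 2 h replicate 1 (-0.22, adjusted p = 0.0483). At 6 h JUND read 161, 131 and 139 CPM in the control line and 92.8, 106 and 92.7 in the ZC3H7B-OE line. These ranges did not overlap, and the difference was -0.57 (SE 0.17, adjusted p = 0.0231). It lost its call without control 6 h replicate 1 (-0.49, adjusted p = 0.113) or replicate 3 (adjusted p = 0.0525) and without ZC3H7B-OE 6 h replicate 1, 2 or 3 (adjusted p = 0.0836, 0.0509 and 0.0845).

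Of the FOS proteins, which bind DNA as partners of JUN proteins, FOS was all but undetected. It had 3 reads over the 12 control libraries and 3 over the 12 ZC3H7B-OE libraries, 0 in all 6 libraries at 0 h, and none of the 6 reads was labelled. FOS stayed below the limit of 3 reads per library used here for detection in every library, so no fold was formed. FOSL1, the FOS protein of proliferating and migrating cells, had 10 to 108 reads per library. At 0 h FOSL1 read 15.2, 12.5 and 9.22 CPM in the control line and 10.1, 8.24 and 12.2 in the ZC3H7B-OE line, with overlap. At 2 h it read 24.0, 10.3 and 11.3 CPM against 7.49, 5.37 and 5.61, and at 6 h 20.7, 20.7 and 30.9 against 13.7, 10.2 and 11.0, without overlap at either time. At 4 h the values were 15.8, 14.7 and 19.1 against 5.29, 7.42 and 17.6, where ZC3H7B-OE replicate 3 lay inside the control range. The FOSL1 difference over the 4 times was -0.85 (SE 0.19, adjusted p = 0.000407) and was called in all 33 alternatives, with a largest adjusted p of 0.0123. At 2 h it was -1.31 (SE 0.41, adjusted p = 0.0384), a call lost without control 2 h replicate 1 (-0.80, adjusted p = 0.364) or ZC3H7B-OE 2 h replicate 1, 2 or 3 (adjusted p = 0.0592, 0.134 and 0.113). At 6 h it was -1.05 (SE 0.34, adjusted p = 0.0310), a call lost without control 6 h replicate 3 (-0.83, adjusted p = 0.170) or ZC3H7B-OE 6 h replicate 1, 2 or 3 (adjusted p = 0.0505, 0.125 and 0.0962).

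The Krüppel-like factors stood apart from each other. KLF10, an early gene of TGF-β signalling, read 32.0, 29.9 and 61.7 CPM in the control line at 0 h and 16.6, 15.5 and 19.7 in the ZC3H7B-OE line. At 2 h it read 122, 91.3 and 90.2 against 49.5, 36.5 and 33.7. At 4 h it read 86.1, 71.4 and 100.4 against 54.6, 43.4 and 44.6. Control libraries were higher throughout, including at 6 h with 93.3, 83.0 and 93.9 CPM against 57.6, 49.0 and 55.0. The KLF10 difference was -1.04 over the 4 times (SE 0.11, edgeR adjusted p = 2.67e-09), -1.20 at 0 h (SE 0.25, adjusted p = 0.000474), -1.35 at 2 h (SE 0.22, adjusted p = 5.24e-05), -0.85 at 4 h (SE 0.21, adjusted p = 0.00350) and -0.74 at 6 h (SE 0.20, adjusted p = 0.0112). Control 0 h replicate 3 was the highest control library for KLF10 at that time, and without it the 0 h difference was -0.85 (adjusted p = 0.00858). The 6 h call was lost without ZC3H7B-OE 6 h replicate 2 (-0.65, adjusted p = 0.0692). KLF6, a zinc finger factor and growth regulator, differed by -0.22 over the 4 times (SE 0.08, adjusted p = 0.0233). At 0 h KLF6 overlapped, with 112, 64.2 and 76.5 CPM in the control line and 78.9, 84.8 and 91.0 in the ZC3H7B-OE line, and at 6 h it did not, with 386, 313 and 370.0 against 268, 242 and 287 (-0.42, SE 0.15, adjusted p = 0.0517). The 6 h difference of KLF6 was called without control 6 h replicate 2 (-0.51, adjusted p = 0.0418). The KLF6 average lost its call without control 0 h replicate 1 (-0.14, adjusted p = 0.135), control 4 h replicate 3 (adjusted p = 0.0513), ZC3H7B-OE 4 h replicate 3 (adjusted p = 0.0536) or ZC3H7B-OE 6 h replicate 2 (adjusted p = 0.0620).

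IER2 and IER5, nuclear proteins of the same family that regulate transcription, had the smallest differences among the genes called, with KLF6. IER2 read 174, 156 and 124 CPM in the control line at 0 h against 166, 149 and 177, and 234, 238 and 279.9 at 4 h against 184, 169 and 198. The lines thus overlapped at 0 h and not at 4 h. The IER2 difference was -0.21 over the 4 times (SE 0.07, edgeR adjusted p = 0.0120) and -0.45 at 4 h (SE 0.13, adjusted p = 0.0176). The average was not called when the 2 h, 4 h or 6 h libraries of both lines were left out (adjusted p = 0.0701, 0.246 and 0.0705), and at 4 h IER2 was not called once control 4 h replicate 3 (-0.34, adjusted p = 0.134) or ZC3H7B-OE 4 h replicate 2 (adjusted p = 0.0732) was left out. IER5 differed by -0.19 over the 4 times (SE 0.08, adjusted p = 0.0437) and by -0.45 at 4 h (SE 0.16, adjusted p = 0.0403), with 157, 149 and 189 CPM in the control line against 127, 123 and 112 at 4 h. The IER5 average lost its call in 18 of 33 alternatives, with an adjusted p of up to 0.423. Among them were those without control 0 h replicates 1 and 2, control 2 h replicates 1 and 2, control 4 h replicate 3, control 6 h replicates 1 and 3, ZC3H7B-OE 0 h replicates 1 and 2, 2 h replicate 3, 4 h replicate 3 and 6 h replicates 2 and 3, each left out alone, where its value ran from -0.20 to -0.15. The IER5 call at 4 h was lost without control 4 h replicate 1 or 3 or any 1 of the 3 ZC3H7B-OE 4 h libraries (adjusted p of 0.0572 to 0.228).

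By time, 3 of the 9 genes were lower in the ZC3H7B-OE line at 0 h (EGR1, JUN and KLF10), beside 19.5% of all entries. At 2 h there were 4 (FOSL1 in addition), beside 7.26%. At 4 h there were 5 (EGR1, JUN, KLF10, IER2 and IER5), beside 10.9%, and at 6 h 5 (EGR1, JUN, KLF10, FOSL1 and JUND), beside 9.23%. None of the 9 was called higher at any time. At 0 h IER5 (0.15), IER2 (0.11), JUND (0.09) and KLF6 (0.00127) had log2 differences above 0 that did not pass. Control 0 h replicate 3 was the lowest control library there for IER5 (129 CPM, beside 191 and 176), IER2 (124, beside 174 and 156) and JUND (71.9, beside 139 and 139). For KLF6 the lowest was replicate 2. The differences of these 4 genes without replicate 3 are not given, so their sign may rest on it. Averaged over the 4 times, 20.3% of all entries were called higher. The number of genes whose 3 ZC3H7B-OE libraries all lay below the 3 control libraries went from 3 at 0 h through 5 at 2 h and 6 at 4 h to 8 at 6 h. Of all 10038 entries 20.3%, 15.7%, 22.5% and 23% showed the same at these times. The number of genes called lower by edgeR, 5 at 4 h and 5 at 6 h, could fall with 1 library left out. At 4 h it fell to 3 without control replicate 3 or ZC3H7B-OE replicate 2. At 6 h it fell to 3 without control replicate 3 or ZC3H7B-OE replicate 1, and to 2 without ZC3H7B-OE replicate 2. Whether the line difference changed over the chase was tested as an interaction in edgeR, and 0 of the 9 genes passed, beside 1.73% of all entries. At an unadjusted p under 0.05 there was 1 gene, EGR1, whose difference was 0.49 lower at 6 h than at 0 h on the log2 scale (-0.49, adjusted p = 0.269), and the likelihood ratio test of DESeq2 called 0 of the 9.

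**Figure D2:**
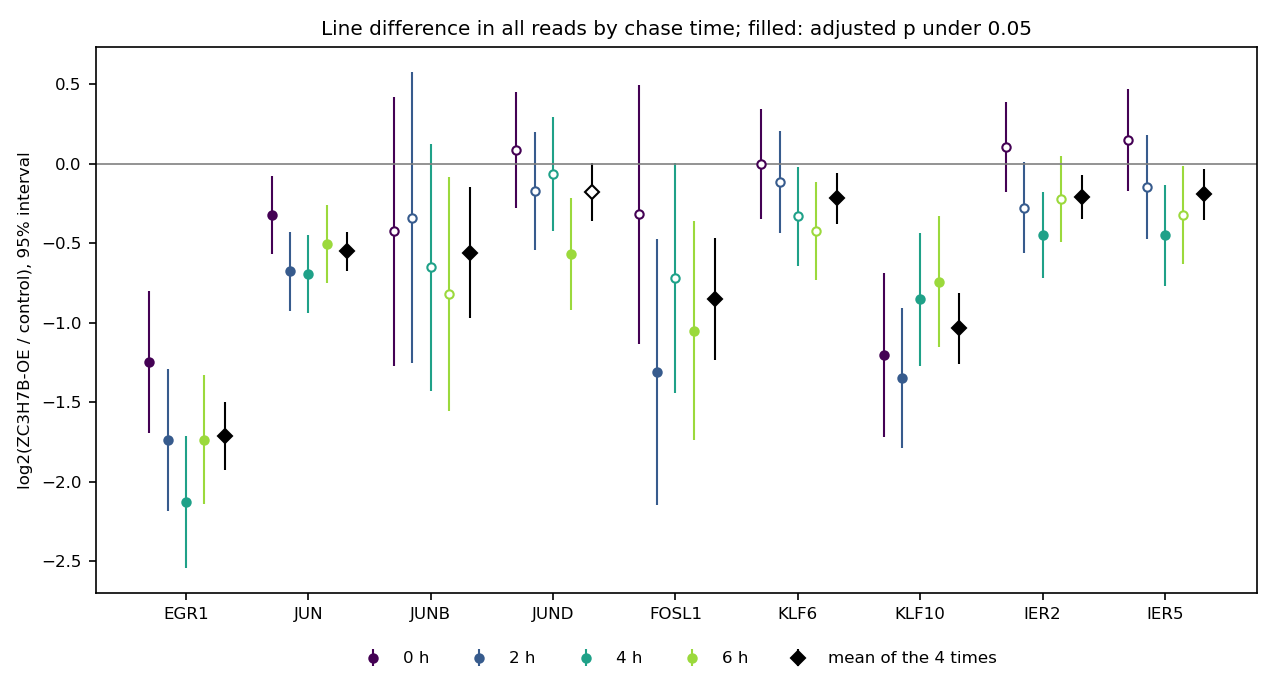
Log2 difference in all reads between the ZC3H7B-OE and the control line (vertical axis) for the 9 genes tested, at 0, 2, 4 and 6 h (circles, left to right) and averaged over the 4 times (diamonds), with 95% intervals; filled symbols have an adjusted p under 0.05. EGR1 lies lowest, at -2.13 at 4 h, and 8 of the 9 averages are filled.

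Reads of most of the 9 genes rose over the chase in the control line. The 3 comparisons with 0 h share the same control 0 h libraries. At 2 h 2 of 9 genes were higher, KLF6 by 1.13 (SE 0.16, edgeR adjusted p = 4.44e-06) and KLF10 by 1.35 (SE 0.22, adjusted p = 2.60e-05), beside 13.4% of all entries, and EGR1 was at 0.32 (SE 0.20, adjusted p = 0.278). At 4 h 5 of 9 were higher, beside 26.7%: KLF6 by 1.52 (SE 0.16), KLF10 by 1.11 (SE 0.22), EGR1 by 1.06 (SE 0.20), IER2 by 0.72 (SE 0.14) and JUN by 0.40 (SE 0.12, adjusted p = 0.00604). At 6 h 7 of 9 were higher, beside 30.7%, with KLF6 at 2.07 (SE 0.16, adjusted p = 1.36e-12), JUN at 0.78 (SE 0.12) and EGR1 at 0.94 (SE 0.20). JUNB (0.65, SE 0.38, adjusted p = 0.139) and JUND (0.28, SE 0.18, adjusted p = 0.163) did not pass at 6 h, but JUNB passed without control 0 h replicate 1 (adjusted p = 0.0197). The medians of the 9 genes were -0.07, 0.40 and 0.79 at 2, 4 and 6 h, against 0.05, -0.08 and -0.05 over all entries. Without control 0 h replicate 3, the rise of KLF6 was 1.06, 1.45 and 2.02 at the later times, that of KLF10 1.71, 1.47 and 1.55, and that of JUN 0.30 (adjusted p = 0.0203) and 0.69 at 4 and 6 h. EGR1 was then at 0.10 (adjusted p = 0.780), 0.84 and 0.74, IER2 at 0.60 and 0.68 at 4 and 6 h, and at 6 h IER5 at 0.50, JUNB at 0.59 (adjusted p = 0.181) and JUND at 0.07 (adjusted p = 0.720). Without that library JUND (-0.55, adjusted p = 0.00652) and IER5 (-0.45, adjusted p = 0.0193) were called lower at 2 h, next to the 2 genes called higher, and JUND also at 4 h (-0.55, adjusted p = 0.00160). The 6 h rise of FOSL1 (0.93, SE 0.36, adjusted p = 0.0249) lost its call (0.81, adjusted p = 0.0515). FOSL1 also lost it without control 0 h replicate 2 (adjusted p = 0.0537) or control 6 h replicate 3 (0.72, adjusted p = 0.125), and the 4 h rise of JUN lost its call without control 4 h replicate 3 (0.30, adjusted p = 0.0673).

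In the ZC3H7B-OE line KLF6 and KLF10 also rose at every time, whereas 4 of the other genes were lower at 2 h. KLF6 rose by 1.01, 1.18 and 1.64 at 2, 4 and 6 h (SE 0.16 each) and KLF10 by 1.21, 1.46 and 1.64 (SE 0.25, 0.24 and 0.24), again against shared 0 h libraries. These were the 2 genes higher at 2 h, beside 16.4% of all entries, and at 4 h, beside 26.5%. At 2 h JUN fell by 0.50 (SE 0.12, edgeR adjusted p = 0.00252), IER5 by 0.60 (SE 0.16, adjusted p = 0.00475), JUND by 0.57 (SE 0.18, adjusted p = 0.0194) and IER2 by 0.45 (SE 0.14, adjusted p = 0.0166), 4 genes beside 6.36% of all entries. The calls of JUND, IER2 and IER5 were lost without ZC3H7B-OE 2 h replicate 3 (adjusted p = 0.120, 0.0705 and 0.0511), which left 1 of the 4. Those of JUND and IER2 were lost without ZC3H7B-OE 0 h replicate 3 (adjusted p = 0.0782 and 0.0840), and that of JUND without ZC3H7B-OE 0 h replicate 1 (adjusted p = 0.0636). At 4 h IER5 was lower by -0.61 (SE 0.16, adjusted p = 0.00160) and JUND by -0.47 (SE 0.18, adjusted p = 0.0275), beside 23.8%. The JUND call was lost without ZC3H7B-OE 0 h replicates 1 or 3 or 4 h replicates 2 or 3 (adjusted p of 0.0613 to 0.0967). At 6 h 4 of 9 were higher, beside 32.8%: KLF6, KLF10, JUN by 0.59 (SE 0.12) and IER2 by 0.46 (SE 0.14, adjusted p = 0.00424). EGR1 was at 0.45 at 6 h (SE 0.22, adjusted p = 0.0707) and was called without ZC3H7B-OE 6 h replicate 1 (0.57, adjusted p = 0.0387).

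The labelled share, the percentage of a gene's reads that carry T-to-C conversions, was lower at 2 h than at 0 h in the group means of EGR1 and JUN. The median entry with enough reads held 88.5% labelled reads in the control line at 0 h and 81.7% at 2 h, and 87.2% and 77.7% in the ZC3H7B-OE line. For EGR1 the share in the control libraries went from 95.2, 90.8 and 96.3% at 0 h to 54.9, 48.6 and 39.4% at 2 h, and in the ZC3H7B-OE libraries from 85.9, 94.4 and 96.9% to 67.6, 45.0 and 57.5%. JUN went from 89.1, 89.1 and 88.4% to 55.6, 57.1 and 53.7% in the control line and from 89.6, 90.8 and 90.3% to 59.1, 58.0 and 53.0% in the ZC3H7B-OE line. Pooled over the 3 control libraries at 2 h, 9.38% of 8429 entries had a lower share than EGR1, 12.5% a lower share than JUN and 8.15% a lower share than IER2. At 6 h the mean share of EGR1 was 6.46 ± 0.859% (SD, n = 3) in the control line and 8.54 ± 4.78% in the ZC3H7B-OE line, and that of JUN 6.22 ± 0.612% and 5.88 ± 0.958%, where the median entry held 30.9% and 29.4%.

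JUND and IER2 were less labelled than the median entry at the end of the pulse. JUND held 59.2, 58.4 and 67.9% labelled reads in the control libraries and 64.3, 56.1 and 58.6% in the ZC3H7B-OE libraries at 0 h, with 12.8% of 8038 entries lower in the pooled control libraries. IER2 held 71.2, 72.1 and 73.9% and 79.2, 80.8 and 69.3%, with 21.3% of entries lower. The other 7 genes with reads had group means of 83.2 to 95.5% at 0 h. The mean share of JUND was then 54.8, 33.0 and 11.3% at 2, 4 and 6 h in the control line and 48.7, 40.4 and 18.3% in the ZC3H7B-OE line.

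**Figure D3:**
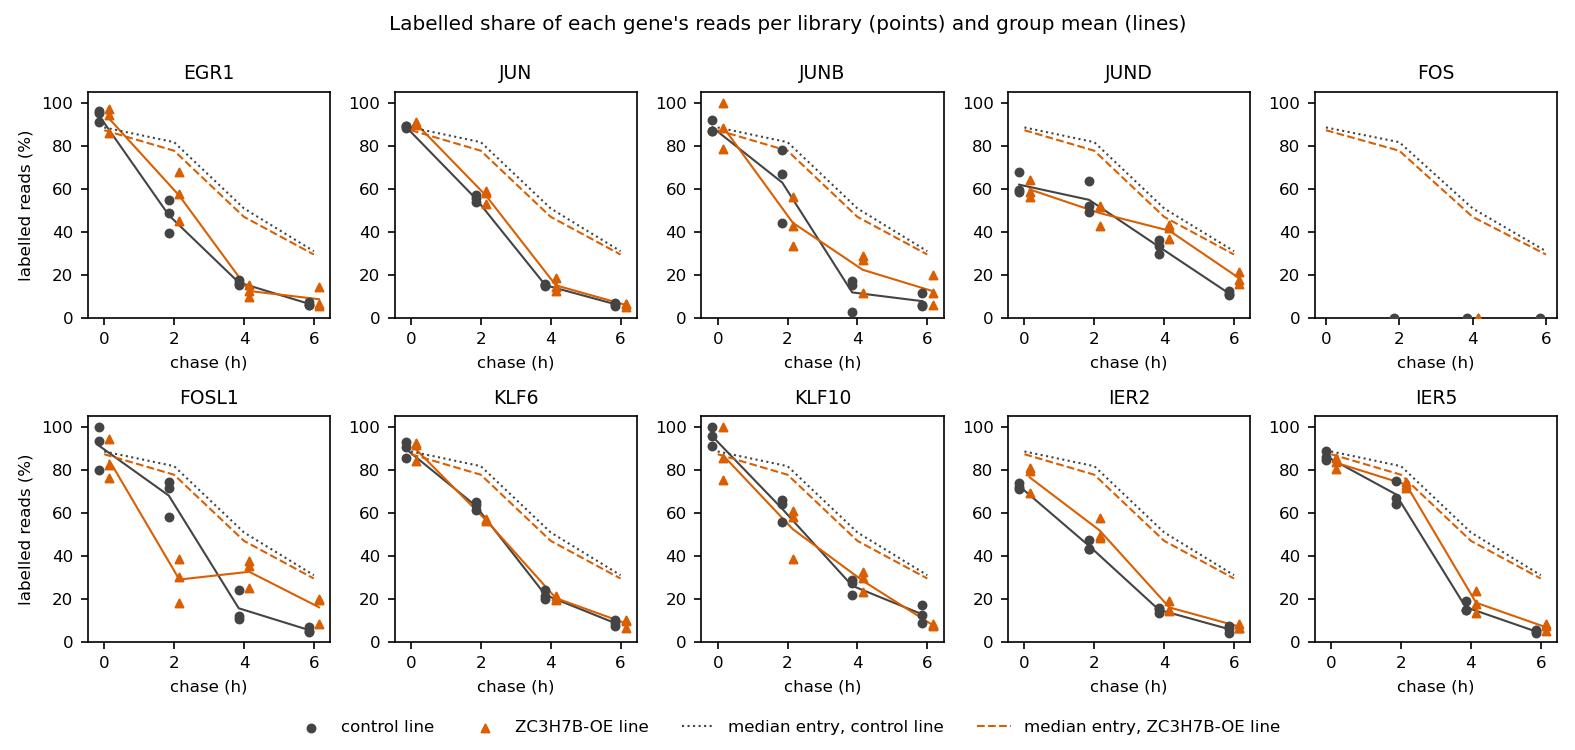
Labelled reads in percent of each gene's reads (vertical axes) against chase time in hours, per library (circles control, triangles ZC3H7B-OE), with lines through the means of 3 libraries; dotted and dashed lines give the median entry of each line. Except for JUND and IER2, the genes start near the median entry at 0 h, and most lie well under it at 2 h, where EGR1 in the control line spans 39.4 to 54.9%.

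The labelled share was then compared between the lines, as the odds of labelled against unlabelled reads of a gene within a library. These odds move with the loss of labelled and with the gain of unlabelled reads alike. Averaged over the 4 times, 0 h among them, edgeR called 0 of the 9 genes in either direction, beside 10.6% of 9617 entries. At an unadjusted p under 0.05 there were 2, KLF10 (log2 odds difference -0.71, SE 0.26, adjusted p = 0.0677) and IER2 (0.29, SE 0.12, adjusted p = 0.106), and limma on log2 odds called 0. KLF10 was called when control 0 h replicate 2, control 2 h replicate 3, control 6 h replicate 3, ZC3H7B-OE 0 h replicate 2 or ZC3H7B-OE 2 h replicate 3 was left out alone (-0.94 to -0.75, adjusted p of 0.0120 to 0.0480), and IER2 without ZC3H7B-OE 0 h replicate 3 (0.36, adjusted p = 0.0310). EGR1 was at 0.06 (SE 0.22, 95% interval -0.39 to 0.51, adjusted p = 0.977) and JUN at 0.04 (SE 0.07, 95% interval -0.10 to 0.18, adjusted p = 0.851). The median over all entries was -0.13 and that of the 9 genes 0.06. No gene of the 9 was called at 0 h (0.957% of entries), 2 h (5.29%) or 4 h (3.53%) by edgeR or limma, and 1 gene had an unadjusted p under 0.05 at each of these times.

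At 6 h JUND was the 1 gene called higher, beside 3.66% of entries. Its labelled share there was 11.2, 12.3 and 10.5% in the control libraries and 17.7, 21.4 and 15.8% in the ZC3H7B-OE libraries, without overlap. The log2 odds difference was 0.83 (SE 0.27, edgeR adjusted p = 0.0455). The call was lost with limma and when any 1 of the 6 libraries was left out, with adjusted p of 0.0706 to 0.166 for the control libraries left out and 0.0571 to 0.287 for the ZC3H7B-OE libraries. FOSL1 had the widest swings, on few reads. Its share at 2 h was 74.5, 57.9 and 71.4% in the control line and 18.2 to 38.5% over the 3 ZC3H7B-OE libraries, from 87 and 34 reads in all (log2 odds difference -2.41, SE 0.83, adjusted p = 0.0718). At 6 h the order was the opposite, with 6.56, 5.08 and 4.63% against 19.6, 8.33 and 20.0% (1.72, SE 0.78, adjusted p = 0.219). Neither FOSL1 difference passed the test, although the ranges did not overlap at either time.

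Split by label, the lower EGR1 level of the ZC3H7B-OE line was found in both kinds of reads. Labelled EGR1 reads stood at 73.8 CPM in the control line and 31.3 in the ZC3H7B-OE line at 0 h, and at 9.98 and 4.13 at 6 h. Unlabelled EGR1 reads rose from 4.99 ± 3.46 (SD, n = 3) at 0 h to 144 ± 3.66 CPM at 6 h in the control line, and from 2.65 ± 2.33 to 42.1 ± 5.16 in the ZC3H7B-OE line. For JUN, unlabelled reads rose from 72.8 ± 9.46 to 1055 ± 108 CPM and from 51.4 ± 5.25 to 746 ± 55.9. In the group means, labelled reads of KLF6 and KLF10 did not fall in the first 2 h, a change that was not tested. Labelled KLF6 read 104, 58.2 and 65.4 CPM at 0 h and 115, 137 and 99.9 at 2 h in the control line, and 72.4, 71.2 and 84.0 and then 107, 92.9 and 90.3 in the ZC3H7B-OE line, where the ranges did not overlap. Labelled KLF10 read 32.0, 27.2 and 59.0 CPM and then 80.3, 58.4 and 50.2 in the control line, with overlap. In the ZC3H7B-OE line it read 12.5, 15.5 and 16.8 CPM and then 28.8, 14.0 and 20.4, also with overlap.

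**Figure D4:**
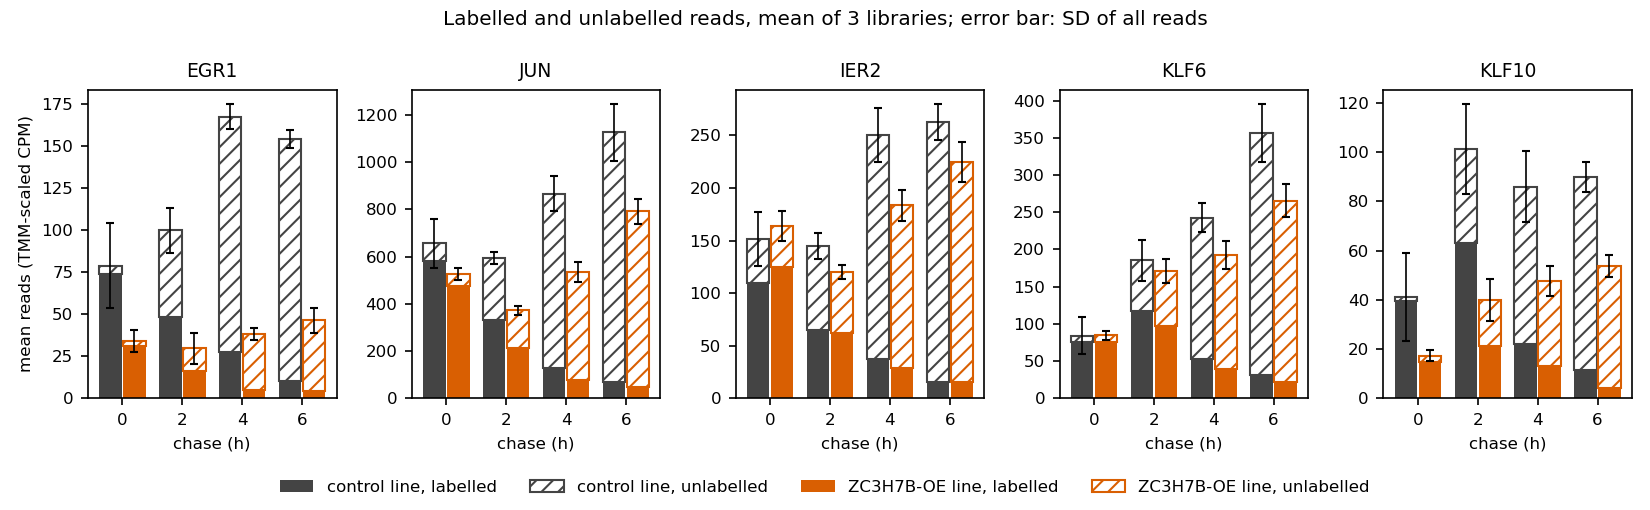
Mean labelled (solid) and unlabelled (hatched) reads in TMM-scaled CPM, stacked, for EGR1, JUN, IER2, KLF6 and KLF10 at each chase time in hours, control line in grey and ZC3H7B-OE line in orange; error bars are the SD of all reads over 3 libraries. Unlabelled EGR1 reads reach 144 CPM in the control line and 42.1 in the ZC3H7B-OE line at 6 h, and solid KLF6 and KLF10 bars are taller at 2 h than at 0 h.

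The fall of labelled reads over 0 to 6 h was fitted as a slope on the log2 scale, relative to all reads of the library. All 9 genes were called with a slope below 0 in the control line by edgeR (adjusted p under 0.05), beside 75.6% of 8490 entries. All 9 were also called in the ZC3H7B-OE line, beside 72.7%. Called or not, 91.2% and 90.6% of entries had a slope below 0 in the 2 lines. The median slopes of the 9 were -0.47 and -0.43 per h, against -0.26 and -0.24 over all entries. IER5 had slopes of -0.62 (SE 0.05) in both lines, which as a half-life of labelled reads is 1.61 h (95% interval 1.37 to 1.93) in the control line and 1.60 h (1.38 to 1.92) in the ZC3H7B-OE line. JUN had -0.53 (SE 0.03) and -0.57 (SE 0.03), half-lives of 1.90 h (1.69 to 2.18) and 1.74 h (1.57 to 1.97). EGR1 had -0.47 (SE 0.06) and -0.52 (SE 0.06), half-lives of 2.15 h (1.71 to 2.89) and 1.91 h (1.54 to 2.51), and IER2 had -0.46 (SE 0.04) and -0.50 (SE 0.04), half-lives of 2.18 h (1.85 to 2.64) and 1.98 h (1.72 to 2.35). Their intervals overlapped between the lines, and 1.42% of entries had a steeper control slope than IER5, 4.29% than JUN and 8.03% than EGR1. JUNB had slopes of -0.51 (SE 0.09) and -0.43 (SE 0.10), FOSL1 -0.56 (SE 0.11) and -0.31 (SE 0.10), and JUND -0.35 (SE 0.04) and -0.31 (SE 0.04). KLF6 had -0.27 (SE 0.06) and -0.34 (SE 0.06) and KLF10 -0.36 (SE 0.08) and -0.29 (SE 0.09), but their labelled reads were higher at 2 h than at 0 h in the mean, so these slopes are not decay rates alone. When the labelled reads were scaled by their own totals, the genes called fell to 7 in the control line, without KLF6 and KLF10, and to 4 in the ZC3H7B-OE line, where EGR1, JUN, IER2 and IER5 stayed called. Under that scaling the control slopes were -0.38 for IER5, -0.28 for JUN, -0.23 for EGR1 and -0.22 for IER2. In the ZC3H7B-OE line they were -0.39, -0.34, -0.30 and -0.27. This scaling takes out the fall of labelled reads that the library as a whole shows. These slopes are therefore relative to the other labelled reads and give no half-life. All 8 are shallower than those given before, so the size of the slopes depends on the scaling. The control slopes of FOSL1, JUNB and JUND were then -0.33, -0.28 and -0.11. Fitted over 2 to 6 h, the ZC3H7B-OE slopes of FOSL1 (-0.03, adjusted p = 0.889) and JUNB (-0.28, adjusted p = 0.137) were not called. Over these hours the slopes of KLF6 and KLF10 were steeper than over 0 to 6 h. They were -0.50 and -0.64 in the control line and -0.54 and -0.56 in the ZC3H7B-OE line. JUN was then at -0.57 and -0.56 in the 2 lines.

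No difference in slope between the lines was called. By edgeR 0 of the 9 genes and 0% of all entries passed, with 0 of the 9 and 479 of the 8490 entries at an unadjusted p under 0.05. The slope differences were -0.06 for EGR1 (95% interval -0.23 to 0.11), -0.05 for JUN (-0.14 to 0.04) and 0.25 for FOSL1 (-0.05 to 0.55). Over 2 to 6 h the FOSL1 difference was 0.77 (adjusted p = 0.114), from slopes of -0.79 in the control line and -0.03 in the ZC3H7B-OE line. In simulated data with the same spread for every entry, a true slope difference of -0.2 was called in 26.9% of 197 entries. Calls of that size could thus be missed, but the figure is not specific to these genes. The interval of EGR1 reaches -0.2 and that of JUN does not.

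**Figure D5:**
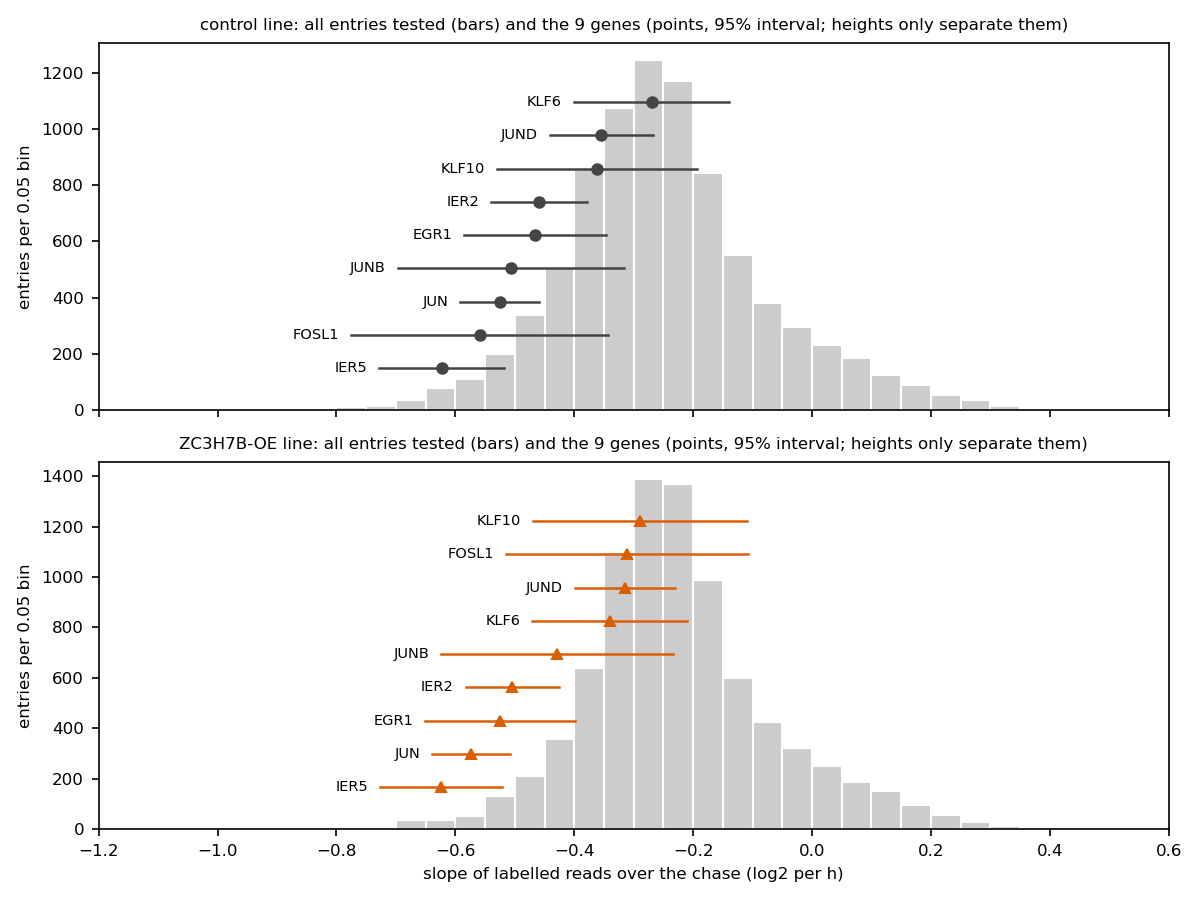
Slopes of labelled reads in log2 per hour (horizontal axis) in the control line (upper panel) and the ZC3H7B-OE line (lower panel): bars count all 8490 entries in bins 0.05 wide, and points with 95% intervals are the 9 genes, at heights that only separate them. Most points lie to the left of the peak of the bars, with IER5 at -0.62 in both panels.

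Other immediate early genes, a list of 36, were in the table in full, and 30 passed the filter on low counts. Over the 4 times 20 were lower in the ZC3H7B-OE line, 1 was higher and 9 did not pass by edgeR, beside 25.4% lower and 20.3% higher of all entries. Their median was -0.46, against 0.01 over all entries. EGR3, a close relative of EGR1, fell by 1.89 (SE 0.22, adjusted p = 1.30e-08), MAFF, a small MAF protein, by 1.55 (SE 0.18, adjusted p = 1.85e-08), CTGF, a matricellular target of YAP and SRF, by 1.26 (SE 0.14, adjusted p = 5.95e-09) and ATF3, a stress-induced bZIP partner of JUN, by 1.15 (SE 0.07, adjusted p = 3.98e-14). The 1 gene higher, named after its value was seen, was SRF, the CArG box binding factor itself (0.20, SE 0.08, adjusted p = 0.0411). Over the chase in the control line 9 of the 30 rose and 1 fell at 2 h, and 23 rose and 1 fell at 6 h, with a median of 1.55. Of all entries 13.4% and 30.7% rose at these times. In the ZC3H7B-OE line 7 rose and 2 fell at 2 h, and 19 rose and 0 fell at 6 h. Of all entries 16.4% rose and 6.36% fell there at 2 h, and 32.8% rose at 6 h. CYR61, TRIB1 and TIPARP rose most surely at 2 h in the control line, by 2.51 (SE 0.27), 1.77 (SE 0.23) and 1.77 (SE 0.23). Between the lines these 3 genes fell by 0.37 (SE 0.12), 0.36 (SE 0.10) and 0.34 (SE 0.11) over the 4 times.

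Of 18 kinases and SRE or CRE factors upstream of these promoters, 12 were tested, of which 4 were higher and 3 lower in the ZC3H7B-OE line over the 4 times, with a median of -0.11, beside 20.3% higher and 25.4% lower of all entries. The kinases MAPK9 (JNK2) and RPS6KA3 (RSK2) fell by 0.66 (SE 0.10) and 0.56 (SE 0.09), while MAP2K2 (MEK2) rose by 0.47 (SE 0.11, adjusted p = 0.000765). In the control line 4 of the 12 rose by 2 h, beside 13.4% of all entries. Among them were RPS6KA3 by 1.08 (SE 0.18), the ternary complex factor ELK4 by 1.52 (SE 0.29) and BRAF by 0.92 (SE 0.21). Of 12 partners and corepressors, 10 were tested, with 4 lower and 1 higher, beside 25.4% and 20.3% of all entries. NAB1, a corepressor that binds EGR1, fell by 1.13 (SE 0.11, adjusted p = 1.37e-10), JDP2, which pairs with JUN, by 0.52 (SE 0.09), SP3 by 0.47 (SE 0.09) and ATF2 by 0.39 (SE 0.09). The 1 partner higher, named after its value was seen, was ATF7 (0.72, SE 0.24, adjusted p = 0.0139). At 2 h in the control line 4 of these 10 rose, beside 13.4% of all entries, and 1 fell, with SP3 at 1.46 (SE 0.18), SP1 at 1.03 (SE 0.15) and MAFG at 0.61 (SE 0.18). Of 9 genes for AU-rich element binding and deadenylation, 8 were tested, with 2 higher and 2 lower, near the 20.3% and 25.4% of all entries. KHSRP (0.49, SE 0.07) and ELAVL1 (0.22, SE 0.06) were higher, and CNOT7 (-0.44, SE 0.08) and PARN (-0.42, SE 0.12) lower. At 2 h in the control line 1 of these 8 rose, ZFP36L2, by 1.03 (SE 0.19), beside 13.4% of all entries. CNOT1 was at 0.35 (SE 0.16, edgeR adjusted p = 0.106) and ELAVL1 at -0.11 (SE 0.11, adjusted p = 0.547).

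The genes most like EGR1 in level over the 24 libraries, among 6023 well-read entries, were FKBP5 (Pearson r = 0.917), HNRNPH3 (0.911), MYEF2 (0.905) and EIF4EBP2 (0.891). Those most like JUN were HSPH1 (0.914), C6orf62 (0.910), CDKN1A (0.906) and SLFN11 (0.903), and among those most like IER2 were SPRY4 (0.909), TUFT1 (0.900) and RGS16 (0.899). These r describe the libraries, which share lines, times and scaling, and each gene listed for EGR1 and JUN was itself lower in the ZC3H7B-OE line over the 4 times by edgeR.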

How the data were processed

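Poly(A) RNA of 24 HEK293 libraries was analysed (2 lines, 4 chase times, 3 libraries each). The authors deposited 2 tables of raw read counts per gene entry, 1 of all reads and 1 of reads with T-to-C conversions (labelled reads). Per the submitters' processing notes fastp and GRCh37 were used. Not given in the sources used here are the aligner, the conversion caller, the annotation and the strand setting of counting, so overlapping or antisense genes may share reads. Per the labels' protocols the library kit was directional.

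All reads were tested with edgeR 4.0.16 (quasi-likelihood, TMM, filterByExpr with a minimum count of 10, all 24 libraries in 1 fit, 10038 entries). Labelled odds were tested by edgeR on labelled and unlabelled counts with a term per library (at least 10 reads in 6 libraries, 9617 entries), and slopes by edgeR on labelled counts scaled by the totals and TMM factors of the all-read table (8490 entries). P-values were adjusted by Benjamini-Hochberg over all entries, with a threshold of 0.05. Standard errors were derived from the F statistic, and 95% intervals from the fit's total degrees of freedom. DESeq2 1.42.0 and limma 3.58.1 (log2 odds with 0.5 added, R 4.3.3) were alternatives. The steps were tested on simulated data. For the line difference over 4 times (9613 entries), 100% of entries changed by 1 (log2) either way were recovered. Of those changed by -0.5 and 0.5, 76% and 78% were recovered. For the line difference at 0 h alone, 54% and 76% of entries changed by -1 and 1 were recovered. Of those changed by -0.5 and 0.5, 8% and 10% were recovered there, so differences of that size at a single time can be missed. In the simulated odds over 4 times (9447 entries), 9.35% of calls were false.

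The 10 genes are described throughout, with values for those a comparison turns on. From each further list, up to 4 genes with the smallest adjusted p between the lines and up to 3 in the control line at 2 h are named, and for EGR1, JUN and IER2 the 4 most correlated entries. Of the genes this rule names, 2 are not reported here. The genes and lists were chosen with earlier results of these data known. Every pair of libraries of a group differed by more than sampling noise (chi-square per degree of freedom of at least 2.28). The largest values, 30.4 and 27.7, were those of control 0 h replicate 3 with replicates 1 and 2. The next was 7.02, for ZC3H7B-OE 4 h replicates 1 and 2.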

Additional observations from a re-analysis of the deposited data

How the results depend on the processing

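Values of the 9 genes tested were recomputed singly under each alternative, for every comparison where a gene was called and some where it was not. Of these 1478 values, 1350 kept their direction and side of the threshold, 100 lost the call, 22 gained it and 6 changed sign. The remaining uncalled comparisons are not counted here. EGR1, JUN, FOSL1 and KLF10 kept their call over the 4 times in all 33 alternatives. The number of genes lower over the 4 times was 5 without the filter on low counts and 4 without the 4 h or the 6 h libraries, and 5 to 9 with 1 library left out. At 0 h it was 1 when only the 6 libraries compared were fitted, and 2 to 3 with 1 left out. The 2 h range was 3 to 4. At 4 h the count was 3 without the filter and 3 to 5 with 1 library left out, and at 6 h 8 with the 6 libraries alone and 2 to 6. Against 0 h the counts with 1 library left out were 2 to 4, 4 to 6 and 6 to 8 in the control line and 3 to 6, 3 to 4 and 4 to 5 in the ZC3H7B-OE line at 2, 4 and 6 h. For labelled odds they were 0 to 1 over the 4 times and 0 at 6 h, where limma also gave 0. With the TMM factors of labelled reads 4 slopes were called in the ZC3H7B-OE line. With 1 library left out the odds difference of EGR1 ran from -0.10 to 0.28, below 0 for control 0 h replicate 2 (-0.07), for the third ZC3H7B-OE library at 0 h (-0.05) and for the second at 6 h (-0.10). That of JUN ran from -0.0066, with ZC3H7B-OE 4 h replicate 2 left out, to 0.078. Over 2 to 6 h the slope difference was 0.044 for EGR1 and 0.010 for JUN. None of these 6 values passed the test. That of FOSL1 was then 0.77, against 0.25 over 0 to 6 h, and 7 of 9 slopes were called in the ZC3H7B-OE line. The cause was not tested for any of these changes.

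The replicate numbers did not pair the libraries: over 84 same-numbered pairs the correlation of deviations ran from -0.16 to 0.21, and 5 of 24 libraries correlated best with their own number. With a replicate block 7 genes were called over the 4 times, without IER5 (adjusted p = 0.0513), and 0 labelled odds at 6 h, without JUND (adjusted p = 0.0568).

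Over all entries the interaction calls ranged from 48 to 942 (174 as reported), the 0 h line differences from 791 to 3600 (3132), the 2 h line differences from 575 to 1265 (949), the 4 h from 1038 to 3104 (1772) and the 6 h from 890 to 3286 (1583), and slope differences from 0 to 63 (0). Control line calls at 2 h ranged from 589 to 2719 (2447). Labelled odds calls ranged from 32 to 291 at 0 h (92), 240 to 908 at 2 h (509), 80 to 452 at 4 h (339) and 248 to 743 at 6 h (625), and slope calls from 3126 to 6773 in the control line (6588) and 2501 to 6642 in the ZC3H7B-OE line (6354). Refits of odds with 1 library left out kept the dispersion trend of all libraries. JUNB and FOSL1, with 9 to 108 reads per library, and FOS are limited by depth.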
